A study of Mus musculus with 6 samples.

Results

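Aldehyde dehydrogenases oxidise aldehydes to carboxylic acids with NAD or NADP as cofactor, and 10 mouse members were followed, each taken by its gene symbol from the 36842 genes listed. They were Aldh1a1, Aldh1a2, Aldh1a3, Aldh1a7, Aldh2, Aldh3a1, Aldh3a2, Aldh3b1, Aldh7a1 and Aldh9a1, and all 10 were found, once each. RNA was sequenced from 6 libraries. In the 3 Sal_CP libraries cells had received 100 µM salidroside, a phenylethanoid glycoside of Rhodiola, together with 2 mM cyclophosphamide for 24 h, and in the 3 CP libraries 2 mM cyclophosphamide alone for 24 h. The labels give all 6 as wild-type GC-2spd(ts), a line derived from mouse spermatocytes, with testis as the tissue, and untreated cells were not analysed here. Levels are in FPKM, which corrects fragment numbers for the length of the transcript and the size of the library.

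Cyclophosphamide is a prodrug. Liver cytochromes P450 hydroxylate it, the product opens to aldophosphamide, and this aldehyde either breaks down to phosphoramide mustard, which alkylates DNA, and acrolein, or is oxidised to the inactive carboxyphosphamide. In human cells ALDH1A1 and ALDH3A1 are the dehydrogenases best known for that oxidation, and a high level of ALDH1A1 makes stem cells resistant to the drug. Other members make retinoic acid (the 1A enzymes), clear acetaldehyde and lipid peroxidation products in mitochondria (ALDH2), or oxidise fatty aldehydes (the 3A2 and 3B enzymes). In mouse testis retinoic acid made by the 1A enzymes drives entry into meiosis.

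The labels name a line derived from spermatocytes, but the libraries held abundant transcripts of other cell types, which the label does not account for. From which cells the levels given here come is therefore unknown. The 12 spermatocyte markers summed to between 1259 and 1837 FPKM in Sal_CP and between 847 and 1267 FPKM in CP. Most of that was Pgk2 and Ldhc, which spermatids also express, while Dmc1, the meiotic recombinase, lay between 0.0345 and 0.299 FPKM over all 6. The 12 spermatid markers summed to between 46711 and 77045 FPKM in Sal_CP and between 32441 and 54039 FPKM in CP. The 15 listed epididymal epithelium markers summed to 2267 to 3236 FPKM in Sal_CP and 4354 to 4946 FPKM in CP. In bulk RNA, fewer cells of a type and less RNA per cell cannot be told apart. The FPKM total per library was between 565944 and 697070. Mitochondrially encoded genes made up from 29.0% of it (Sal_CP replicate 3) to 50.4% (CP replicate 3). Scaling factors by median of ratios were 1.20, 0.841 and 0.796 in Sal_CP replicates 1 to 3, and 1.11, 1.11 and 1.04 in CP. The number of reads behind a value is unknown. Nothing in the labels tells whether replicates were grown separately, so a p-value measures only the spread between these libraries, which may be technical.

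Aldh1a1 and Aldh1a7 are the members whose reads are hardest to tell apart, and their sequences are shown first because a later result compares them. In the GENCODE M21 annotation (GRCm38), Aldh1a1 (ENSMUSG00000053279) spans 20492715 to 20643465 on the plus strand of chromosome 19. Aldh1a7 (ENSMUSG00000024747) spans 20692953 to 20727562 on the minus strand, 49487 bases away. The other members lie elsewhere: Aldh2 on chromosome 5, Aldh1a2 on 9, Aldh1a3 on 7, Aldh9a1 on 1 and Aldh7a1 on 18. Aldh3b1 lies at 3913491 to 3929808 on 19, and Aldh3a1 and Aldh3a2 lie on 11 with 4995 bases between them. The Aldh1a1 and Aldh1a7 coding sequences are 1503 bases each and are identical at 1377 positions (91.6%). The next most similar coding sequences to Aldh1a1 among the 10 members, those of Aldh1a2 and Aldh1a3, are 66.4% and 66.0% identical to it over the alignment.

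The most alike stretch of 60 coding bases within 1 exon lies in exon 3 of both genes (Aldh1a1 transcript ENSMUST00000087638, Aldh1a7 transcript ENSMUST00000025656), at chr19:20617934-20617993 on the plus strand and chr19:20722305-20722364 on the minus strand, and holds 0 differences. The least alike stretch lies in exon 4 of both, at chr19:20619973-20620032 and chr19:20719252-20719311, and holds 16. Capitals mark the bases that differ.
Aldh1a1 exon 3: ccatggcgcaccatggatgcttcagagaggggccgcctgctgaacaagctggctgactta
Aldh1a7 exon 3: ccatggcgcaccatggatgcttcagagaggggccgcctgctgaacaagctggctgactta
Aldh1a1 exon 4: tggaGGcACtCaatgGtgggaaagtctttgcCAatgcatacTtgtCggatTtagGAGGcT
Aldh1a7 exon 4: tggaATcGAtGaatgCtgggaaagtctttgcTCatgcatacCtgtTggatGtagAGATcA

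Per the labels, reads were 150 bases long. Of the 1354 windows of 150 bases in the Aldh1a1 coding sequence, 0 occur in that of Aldh1a7, and the longest identical run is 100 bases. Aligned windows of 150 bases differ at 2 to 27 positions, with a median of 11. How the authors divided reads between similar genes is not given in the sources used here, so the division between Aldh1a1 and Aldh1a7 is uncertain.

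**Figure D1:**
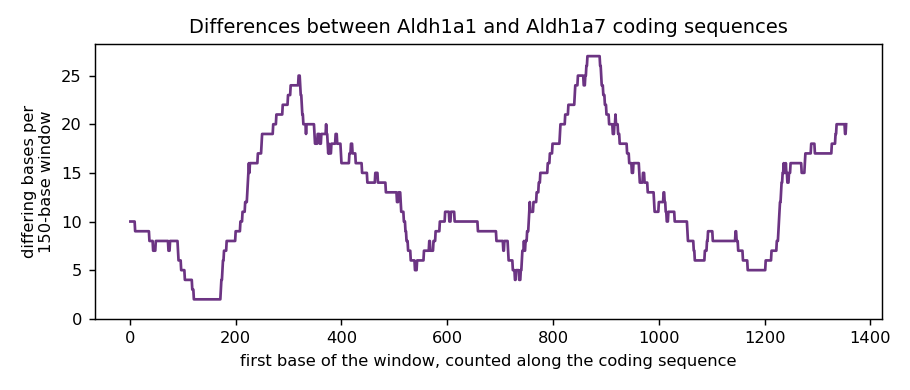
Number of differing bases (y axis) in each window of 150 bases against the position of its first base along the aligned coding sequences of Aldh1a1 and Aldh1a7 (x axis, in bases). No window falls below 2 differences and the highest holds 27.

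The promoters of the same neighbours share a block. The 250 bases before the RefSeq start (GRCm38.p6) are shown for Aldh1a1 at chr19:20601718-20601967 on the plus strand, 1 of its 2 promoters in the table, and for Aldh1a7 at chr19:20727557-20727806 on the minus strand. Capitals mark the longest identical run, of 65 bases, which in both genes starts 94 bases before the start site. It holds a CCAAT box and the octamer ATGCAAAT.
Aldh1a1 promoter: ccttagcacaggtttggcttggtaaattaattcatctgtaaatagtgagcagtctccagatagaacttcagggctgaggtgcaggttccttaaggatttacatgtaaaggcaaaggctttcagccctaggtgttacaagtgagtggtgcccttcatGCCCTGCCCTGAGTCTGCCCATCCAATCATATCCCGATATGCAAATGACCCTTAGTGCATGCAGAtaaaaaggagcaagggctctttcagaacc
Aldh1a7 promoter: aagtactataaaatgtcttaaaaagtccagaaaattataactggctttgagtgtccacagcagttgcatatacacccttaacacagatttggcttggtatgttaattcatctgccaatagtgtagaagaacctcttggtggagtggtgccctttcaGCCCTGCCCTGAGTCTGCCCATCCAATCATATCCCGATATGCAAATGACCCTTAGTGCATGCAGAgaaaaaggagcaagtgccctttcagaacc

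Promoters were taken from the RefSeq table by symbol, with chromosome 18, and so Aldh7a1, left out. This gave promoters of 6 of the 10 members (Aldh1a1, Aldh1a2, Aldh1a7, Aldh3a2, Aldh3b1 and Aldh9a1). The octamer was searched after these sequences had been read, in both strands of the 250 upstream bases. It was found in the Aldh1a1 promoter shown, Aldh1a7 and Aldh1a2, and in 1.6% of the 32851 promoters of the table. CCAAT was found in these and in Aldh3a2 and Aldh9a1, against 33.8% of all promoters. TGACNNNGC, the core of the antioxidant response element bound by NRF2, was found in Aldh1a2 and Aldh9a1, against 10.2% of all. GCGTG, the core bound by the aryl hydrocarbon receptor, was found in Aldh1a2, Aldh3a2 and Aldh9a1, against 28.2%, and TATAAA in Aldh1a7, against 12.4%. The other Aldh1a1 promoter, whose window begins at 20492333 near the start of the annotated gene, held none of these motifs. Overlap with other motifs was not removed, and a match is a description of the letters.

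Aldh1a1 was by far the most abundant member. It averaged 91.5 FPKM over the 6 libraries, the 385th highest of all genes listed, and supplied 51.1 to 60.3% of the members' summed FPKM in Sal_CP and 58.3 to 63.7% in CP. Aldh2, the mitochondrial enzyme, came next at 25.8 FPKM, and Aldh3a2, the fatty aldehyde dehydrogenase, followed at 8.24 FPKM. The lowest Aldh1a1 value lay above the highest Aldh2 value, and the lowest Aldh2 value above the highest Aldh3a2 value. From Aldh3a2 down to Aldh3b1 the order by mean was Aldh3a2, Aldh1a7 (7.99 FPKM), Aldh1a2 (6.39), Aldh7a1 (5.92), Aldh9a1 (5.39) and Aldh3b1 (4.97), and each of these overlapped its neighbour in range, so that their order is not resolved. Aldh1a3 lay below all of them at 0.579 FPKM. Aldh3a1 was lowest, at 0.0594 FPKM, so of the dehydrogenases best known for aldophosphamide only Aldh1a1 was present above a mean of 1 FPKM.

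**Figure D2:**
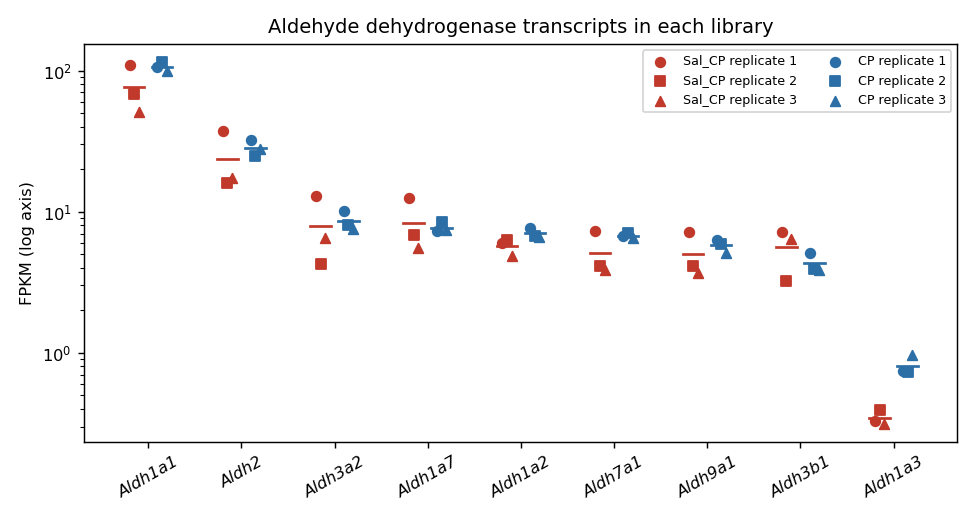
FPKM on a log axis (y) of 9 members (x, ordered by mean), with a point for each library and a bar for the group mean. Aldh3a1 is left out because it is listed at 0 in 2 Sal_CP libraries. Aldh1a1 lies above all other members in every library, and the Aldh1a3 points of Sal_CP lie below those of CP.

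Setting Sal_CP against CP shows how levels differed when salidroside accompanied the drug. No member passed the test. Of the 10 members, 8 had a mean of at least 1 FPKM and were tested with limma on log2(FPKM + 1), a scale that understates the change of low genes, with Benjamini-Hochberg adjustment over the 12241 genes tested. With a cutoff of 0.05 on the adjusted p, 0 of the 8 members were called, against 0.0735% of all genes tested (9 genes, all lower), and at an unadjusted p below 0.05 also 0 of 8, against 10.7% of all. The log2 change was below 0 for 6 of the 8, against 60.5% of all genes tested. The median change over the 8 was -0.24, against -0.12 over all genes tested.

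**Figure D3:**
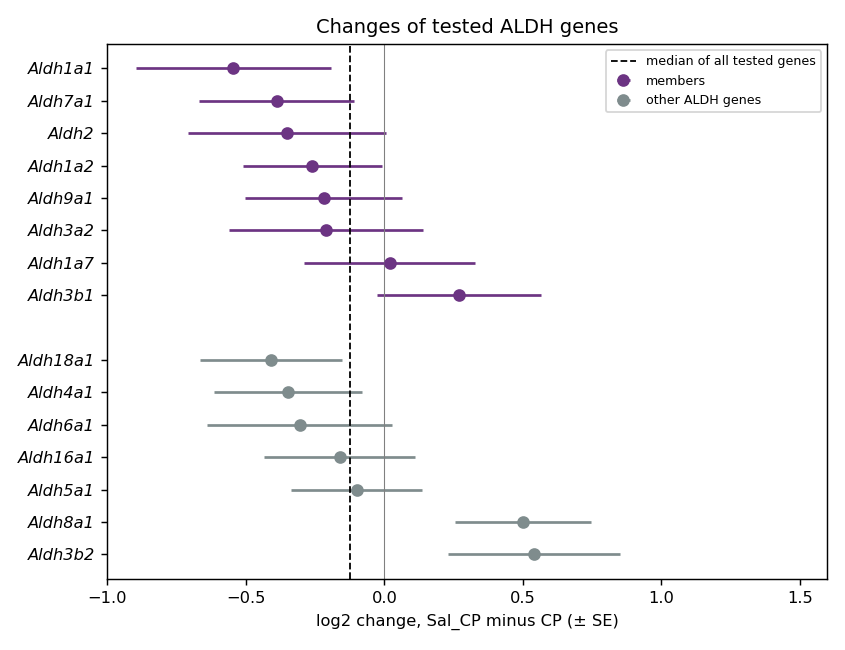
Change in log2(FPKM + 1), Sal_CP minus CP, with its standard error (x axis), for the 8 tested members and the 7 tested other ALDH genes (y axis). The dashed line is the median of all genes tested, at -0.12, and the members run from -0.54 for Aldh1a1 to 0.27 for Aldh3b1.

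Of the enzymes that oxidise aldophosphamide, Aldh1a1 had 109.7, 68.5 and 50.8 FPKM in Sal_CP replicates 1 to 3, against 106, 115 and 98.7 FPKM in CP. In Sal_CP, replicates 2 and 3 were lower than all CP libraries, while replicate 1 lay among them. Sal_CP averaged 76.4 ± 30.2 FPKM, against 107 ± 8.13 FPKM for CP (SD, n = 3 each), and the log2 change was -0.54 (SE 0.35) with a limma adjusted p of 0.516. Aldh3a1 was listed at 0, 0 and 0.139 FPKM in Sal_CP and at 0.0298, 0.115 and 0.0720 FPKM in CP. It lay below the filter, the groups overlapped, and no change is given.

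Among the enzymes that make retinoic acid, Aldh1a3 was the member with the widest separation between groups. It had 0.331, 0.396 and 0.315 FPKM in Sal_CP, against 0.741, 0.730 and 0.962 FPKM in CP. Every Sal_CP library lay below every CP library, and the mean was 57.2% lower in Sal_CP (0.347 ± 0.0429 against 0.811 ± 0.131 FPKM, SD, n = 3 each). Its mean was under 1 FPKM and it was not in the test. With the filter lowered to a mean of 0.5 FPKM its log2 change was -0.42 (SE 0.18) with a limma adjusted p of 0.466. With a pseudocount of 0.1 and a filter of 0.3 FPKM, chosen after seeing the data, it was -1.02 (SE 0.42, limma adjusted p 0.475). In the authors' deposited table its p-value was 0.0168 and its q-value 0.348, and 10.7% of genes above 0 in at least 1 library had a deposited p-value below 0.05. Groups were apart with Sal_CP lower for 9.69% of the 5199 genes with a mean from 0.3 to 1 FPKM, which is 504 genes.

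Aldh1a2, the retinal dehydrogenase of mouse spermatocytes, had 5.996, 6.33 and 4.87 FPKM in Sal_CP, against 7.72, 6.74 and 6.66 FPKM in CP. The groups did not overlap, but the gap between them was 0.333 FPKM, and the log2 change was -0.26 (SE 0.25, limma adjusted p 0.607). Among the 8 tested members it was the only one whose groups were apart, against 10% of all genes tested in the lower direction. It was also the member least affected by Sal_CP replicate 1 among those tested, with 1.07 times the mean of replicates 2 and 3 there. Aldh1a7, the neighbour of Aldh1a1, with little activity on retinal in the mouse, had 12.5, 6.79 and 5.53 FPKM in Sal_CP, against 7.24, 8.43 and 7.48 FPKM in CP. Its Sal_CP libraries lay on both sides of CP, and its log2 change was 0.02 (SE 0.31, limma adjusted p 0.975). The sign turned without Sal_CP replicate 1 (-0.29), without CP replicate 1 (-0.020) and after removal of mitochondrially encoded genes (-0.036).

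Aldh2, which clears acetaldehyde and 4-hydroxynonenal, had 37.2, 15.9 and 17.3 FPKM in Sal_CP, against 32.1, 24.6 and 27.9 FPKM in CP. Sal_CP replicate 1 was the highest of the 6 libraries and replicates 2 and 3 were the lowest, with a log2 change of -0.35 (SE 0.36, limma adjusted p 0.618). Aldh3a2, an enzyme of the endoplasmic reticulum that turns fatty aldehydes into fatty acids, had 12.9, 4.26 and 6.53 FPKM in Sal_CP, against 10.1, 8.03 and 7.56 FPKM in CP. Its pattern was the same, highest in Sal_CP replicate 1 and lowest in the other Sal_CP libraries, with a log2 change of -0.21 (SE 0.35, limma adjusted p 0.749). Without Sal_CP replicate 2 that change was 0.11.

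Aldh7a1, which oxidises an aldehyde of lysine breakdown and betaine aldehyde, had 7.26, 4.13 and 3.87 FPKM in Sal_CP, against 6.70, 7.07 and 6.46 FPKM in CP (log2 change -0.39, SE 0.28, limma adjusted p 0.536). Aldh9a1, which makes the carnitine precursor butyrobetaine, had 7.20, 4.14 and 3.66 FPKM in Sal_CP, against 6.33, 5.90 and 5.12 FPKM in CP (log2 change -0.22, SE 0.28, limma adjusted p 0.683). Both were again highest in Sal_CP replicate 1 and lowest in replicates 2 and 3. Aldh7a1 overlaps Phax and Aldh1a1 overlaps C730002L08Rik, each on the opposite strand, and although the library kit kept strand, whether the counting used it is not given in the sources used here.

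Aldh3b1, which acts on medium- and long-chain aldehydes at membranes, was the tested member with the most positive change. It had 7.22, 3.25 and 6.38 FPKM in Sal_CP, against 5.12, 3.95 and 3.86 FPKM in CP, with a log2 change of 0.27 (SE 0.30, limma adjusted p 0.641). Sal_CP replicates 1 and 3 lay above every CP library and replicate 2 below them. Its paralog Aldh3b2, 42519 bases away on chromosome 19 and 80.5% identical in coding sequence, had 6.22, 5.60 and 10.3 FPKM in Sal_CP, against 3.14, 6.31 and 4.77 FPKM in CP (log2 change 0.54, SE 0.31, limma adjusted p 0.492). In both genes the groups overlapped.

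Sal_CP replicate 1 had 1.82 to 2.40 times the mean of Sal_CP replicates 2 and 3 in 6 of the 10 members (Aldh1a1, Aldh1a7, Aldh2, Aldh3a2, Aldh7a1 and Aldh9a1). In Aldh1a2 and Aldh1a3 it had 1.07 and 0.930 times that mean, in Aldh3b1 replicate 2 was the lower one, and Aldh3a1 was near 0. The summed FPKM of the 10 members was 200.4, 114 and 99.4 in Sal_CP, against 182, 181 and 165 in CP. Relative to the CP mean, the median departure of the 8 tested members was 0.34, -0.50 and -0.49 in log2(FPKM + 1) in Sal_CP replicates 1 to 3, where the median over all genes tested was 0.16, -0.26 and -0.31. In each of these libraries the median gene moved in the same direction as the members. The summed level of 12 macrophage and leukocyte markers, mostly Lyz2, was also highest in Sal_CP replicate 1, at 924, 277 and 150.0 FPKM in Sal_CP and 512, 382 and 198 FPKM in CP. Lyz2, a macrophage lysozyme, had 562 FPKM in Sal_CP replicate 1 and 89.8 FPKM in replicate 3, and 6 of the 9 tested markers had a change below 0, with 0 called. S100a9, a calprotectin subunit abundant in neutrophils, had 1.17, 1.84 and 1.02 FPKM in Sal_CP, against 9.14, 12.04 and 3.07 FPKM in CP, and its partner S100a8 was also lower in every Sal_CP library. These 2 were not raised in Sal_CP replicate 1, and Ly6g, of neutrophils, was listed at 0 in 5 of the 6 libraries. The part of these cells in the members' levels was not tested.

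**Figure D4:**
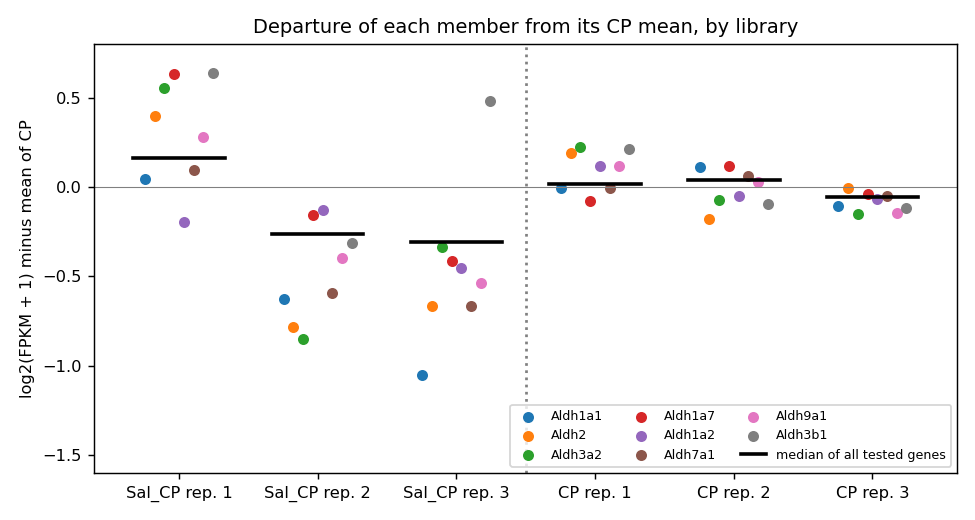
Departure of each tested member from its own CP mean in log2(FPKM + 1) (y axis) in each library (x axis), with the median of all tested genes as a black bar. In Sal_CP replicate 1 all tested members but Aldh1a2 lie above 0, and in replicate 2 all lie below 0, as do all but Aldh3b1 in replicate 3.

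Leaving out Sal_CP replicate 1 gave no call, but made 5 of the 8 changes more negative by over 1.5 times. Aldh1a1 then had a log2 change of -0.84 (SE 0.26, limma adjusted p 0.0856), Aldh2 one of -0.72 (adjusted p 0.0821) and Aldh7a1 one of -0.63 (adjusted p 0.0705), with the spread estimated on the remaining 5 libraries. The Aldh3a2 and Aldh9a1 changes were -0.59 and -0.47, that of Aldh1a7 was -0.29 in place of 0.02, that of Aldh1a2 was -0.29 in place of -0.26, and that of Aldh3b1 was nearer 0, at 0.085. At an unadjusted p below 0.05 there were then 5 of 8 members lower, against 31.5% of all genes tested, and the median of all genes was -0.30. Without Sal_CP replicate 3 the Aldh1a1 change was -0.29 (limma adjusted p 0.956).

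Ratios of members within a library do not depend on how libraries are scaled. The FPKM of Aldh1a1 was 8.80, 10.1 and 9.19 times that of Aldh1a7 in Sal_CP, against 14.6, 13.6 and 13.2 times in CP. The groups did not overlap, and the ratio averaged 9.36 ± 0.656 in Sal_CP, against 13.8 ± 0.740 for CP (SD, n = 3 each), a log2 difference of -0.56 (SE 0.073). The exact permutation p was 0.1, the smallest that 3 libraries against 3 allow, and 0.35 after adjustment over the 28 ratios among the 8 tested members. Groups were apart for 8 of these 28 ratios, and for 18.7% of the ratios of every 2 tested genes above 0 in all libraries. The choice of Aldh1a1 and Aldh1a7 from the 28 was made after the values were seen. Relative to Aldh1a1, 20.1% of all tested genes were higher in every Sal_CP library than in any CP library, as Aldh1a7 and Aldh9a1 were.

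Other ratios to Aldh1a1 showed where the members kept step. Aldh1a1 over Aldh7a1 was 15.1, 16.6 and 13.1 in Sal_CP, against 15.8, 16.3 and 15.3 in CP, with overlap between groups. Aldh1a1 over Aldh9a1 was 15.2, 16.6 and 13.9 in Sal_CP, against 16.8, 19.5 and 19.3 in CP, a narrow separation. Aldh1a7 over Aldh7a1 was 1.72, 1.65 and 1.43 in Sal_CP, against 1.08, 1.19 and 1.16 in CP, without overlap, and 24.3% of all tested genes were, like Aldh7a1, lower relative to Aldh1a7 in every Sal_CP library. The last 2 ratios also had an exact permutation p of 0.1 and an adjusted p of 0.35. The other ratios with groups apart were Aldh3b1 against Aldh2, Aldh3a2 and Aldh7a1, Aldh7a1 over Aldh9a1, and Aldh1a7 over Aldh9a1.

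**Figure D5:**
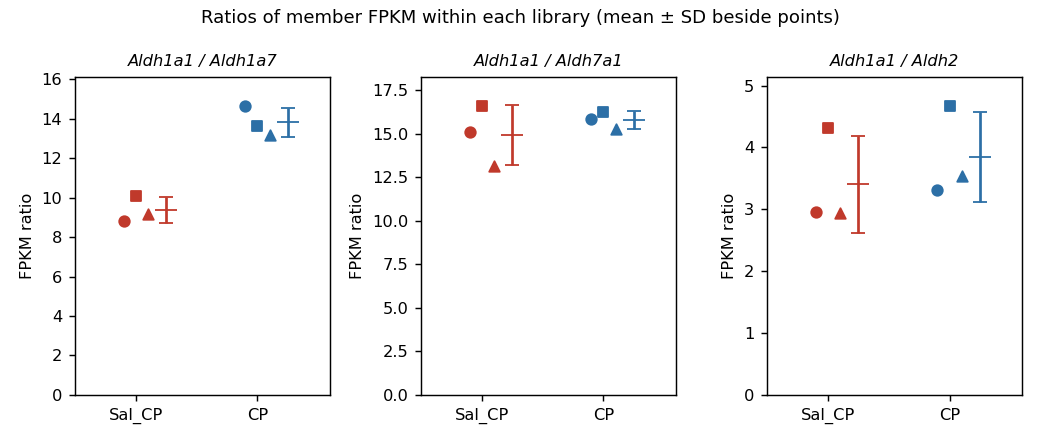
FPKM ratio within each library (y axis from 0) of Aldh1a1 to Aldh1a7, Aldh7a1 and Aldh2, in Sal_CP and CP (x axis), with a point per library and the mean ± SD beside it. The Aldh1a1 to Aldh1a7 ratio lies between 8.80 and 10.1 in Sal_CP and between 13.2 and 14.6 in CP, while the other 2 ratios overlap.

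Genes whose pattern over the 6 libraries was most like that of the 3 most abundant members were found by Pearson's r of log2(FPKM + 1), among 10364 named genes, as a description. Closest to Aldh1a1 were Mob3a, Bid, a BH3-only cell death protein, and Vcp, an ATPase that extracts proteins for degradation (r = 0.998, 0.997 and 0.997). Closest to Aldh2 were Dock1, Adam9 and Aebp2 (0.998, 0.997 and 0.997), and closest to Aldh3a2 were Mpv17, Gosr1 and Zfp710 (0.996, 0.993 and 0.992). All points share the same 6 libraries and their scaling.

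The rest of the family gave no call either. Of 11 other ALDH genes 7 were tested and 0 passed in either direction. The change was below 0 for 5 of the 7, against 60.5% of all genes tested. The median was -0.16, against -0.12 over all genes tested. Aldh8a1, another enzyme acting on retinal, had 1.39, 1.92 and 1.56 FPKM in Sal_CP, against 1.40, 0.773 and 0.477 FPKM in CP (log2 change 0.50, limma adjusted p 0.470). Aldh1b1, a mitochondrial relative of Aldh2 below the filter, had 0.601, 0.707 and 0.873 FPKM in Sal_CP, against 1.45, 1.18 and 1.14 FPKM in CP, without overlap. Groups were apart with Sal_CP lower for 9.69% of genes with a mean from 0.3 to 1 FPKM.

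The other steps of cyclophosphamide handling were examined through lists. Of 23 cytochrome and reductase genes for activation 19 were listed and 2 tested, with 0 called. Por, the reductase that feeds electrons to microsomal cytochromes, had 9.62, 3.87 and 4.81 FPKM in Sal_CP, against 9.40, 7.77 and 7.66 FPKM in CP (log2 change -0.46, limma adjusted p 0.531). Cyp2s1 had a log2 change of -0.48 (limma adjusted p 0.508), and Cyp2b10, a mouse liver enzyme of the subfamily that activates the drug, was listed at 0 in all 3 Sal_CP libraries and in CP replicate 2. Of 22 glutathione transferase genes 17 were tested, with 0 called and a median of -0.51. The change was below 0 for 15 of the 17, against 60.5% of all genes tested. Gstm5, by far the most abundant, went the other way (log2 change 0.63, limma adjusted p 0.473). It had 4675, 6767 and 5880 FPKM in Sal_CP, against 4872, 3694 and 2780 FPKM in CP. With it, the list summed to 5229 to 7112 FPKM in Sal_CP and 3254 to 5383 FPKM in CP. Mgst1 had the smallest p (log2 change -0.96, limma adjusted p 0.398), followed by Gstt1 (-0.68, adjusted p 0.421), and 4 of the 17 had groups apart with Sal_CP lower, against 10% of all genes tested.

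Of 21 other enzymes of aldehyde reduction or oxidation 12 were tested and 1 fell, Akr1b7, an aldo-keto reductase, with 18.7, 17.9 and 27.3 FPKM in Sal_CP against 323, 219 and 124 FPKM in CP (log2 change -3.24, SE 0.39, limma adjusted p 0.0152). Its call was lost without Sal_CP replicate 1, without Sal_CP replicate 2, without a filter, and after upper quartile or median of ratios rescaling. The next smallest p was that of Akr1b10 (log2 change -0.57, limma adjusted p 0.464), and the list's median was -0.38. Of 28 retinoid genes 13 were tested, 0 called, with a median of -0.13. Rarg, a retinoic acid receptor, had 3.79, 2.48 and 1.82 FPKM in Sal_CP, against 5.50, 5.24 and 4.99 FPKM in CP (log2 change -0.79, SE 0.26, limma adjusted p 0.402). In 5 of the 13 the groups were apart with Sal_CP lower, against 10% of all genes tested, and in 1, Rdh11, with Sal_CP higher, against 7.21%.

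Lists around single members also held 0 calls each. Of 9 genes of amine oxidation and carnitine synthesis 2 were tested, Shmt2 (log2 change -0.38, limma adjusted p 0.577) and Smox (0.12, adjusted p 0.830). Of 12 fatty aldehyde genes 8 were tested, with a median of -0.22, and Agps (-0.45, adjusted p 0.509) and Gnpat (0.48, adjusted p 0.531), both of plasmalogen synthesis, had the smallest p in limma. Of 8 genes of lysine and betaine metabolism 4 were tested, with a median of -0.23, led by Chdh (-0.68, adjusted p 0.447), which makes betaine aldehyde, and Dhtkd1 (0.49, adjusted p 0.473) in limma. Of 13 targets of the aryl hydrocarbon receptor and NRF2 8 were tested, with a median of -0.26, led by Txnrd1 (-0.57, adjusted p 0.505) and G6pdx (-0.55, adjusted p 0.530) in limma.

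Markers of epithelial cells were mostly lower in Sal_CP, and among those of junctions, keratins and epididymal epithelium only Defb42 was called. Of 11 genes of epithelial junctions and keratins, all tested, 0 were called, 10 had a change below 0 (60.5% of all genes tested) and 8 had groups apart with Sal_CP lower (10% of all), with a median of -1.08, against -0.12 over all genes tested. In Sal_CP replicate 1 all tested members but Aldh1a2 were above the CP mean. The 8 genes with groups apart, Krt19, Epcam and Cdh1 among them, had to lie below every CP library there. They were picked by that separation, so it allows no comparison with the members. Krt7, Esrp1 and Cldn3 lay within the CP range in that library. The 11 epithelial genes summed to 554 to 706 FPKM in Sal_CP and 629 to 836 FPKM in CP, and none was at 0. Cldn3 was the highest of them (log2 change 0.49, limma adjusted p 0.540). Of the 15 listed epididymal markers 9 were tested, 7 had a change below 0, 1 fell (Defb42, log2 change -2.52, limma adjusted p 0.0319) and 2 were at 0 in every library. Spermatocyte and spermatid markers went the other way, with 0 called. Of 12 spermatocyte markers 7 were tested, 0 had a change below 0 and the median was 0.59. In 5 of the 7 the groups were apart with Sal_CP higher, against 7.21% of all genes tested. All 12 spermatid markers were tested, 0 had a change below 0, 1 had groups apart with Sal_CP higher and the median was 0.49. Of 10 spermatogonia markers 3 were tested and 1 had a change below 0. Leydig markers summed to 1.27 to 3.05 FPKM in Sal_CP and 3.76 to 5.42 FPKM in CP, with Hsd17b3 at 0 in every library. The highest of them in CP was Insl3, with 2.03, 3.18 and 1.85 FPKM, against 0, 0 and 0.922 FPKM in Sal_CP. Its limma adjusted p was 0.153. Star was also lower in every Sal_CP library (limma adjusted p 0.576). Cyp17a1 overlapped, with a mean of 0.840 FPKM in Sal_CP and 0.516 FPKM in CP. Sertoli markers summed to 95.0 to 165 FPKM in Sal_CP and 473 to 798 FPKM in CP, mostly Clu, with Fshr at 0 in every library. Among the 5 tested only Clu fell (log2 change -2.53, limma adjusted p 0.0319). The other Sertoli markers tested were not called, and their groups overlapped. Their log2 changes were -0.49 for Sox9, -0.086 for Cldn11, -0.061 for Vim and -0.024 for Amhr2. Below the filter, Gata4 was lower in every Sal_CP library (mean 0.210 against 0.555 FPKM in CP). Amh was higher in every Sal_CP library (mean 0.162 against 0.0118 FPKM in CP). Groups were apart with Sal_CP lower for 9.69% of genes from 0.3 to 1 FPKM, where Gata4 lay. The calls of Clu and Defb42 were both lost after quantile, upper quartile or median of ratios rescaling, without a filter, with a filter of 0.5 FPKM or with 0.3 FPKM and a pseudocount of 0.1, and without any 1 of the Sal_CP libraries or CP replicate 3. Clu was also lost without CP replicate 1, and Defb42 with a pseudocount of 0.1 or no trend in limma. The part of these cells in the levels of Aldh1a1, Aldh1a3 and the other members was not tested.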

How the data were processed

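RNA-seq values of 6 mouse libraries, 3 Sal_CP and 3 CP, were used, grouped by title. Per the labels, total RNA went into strand-preserving libraries read as paired reads of 150 bases, and GRCm38 is named as build per the submitters' processing notes. No source used here gives the aligner, the quantifier or the authors' test. The deposited values are FPKM, and no read counts were used. The authors' deposited fold (ratio), log2 fold, p-value and q-value columns have no stated method.

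Levels were put on the log2(FPKM + 1) scale for 12241 genes averaging 1 FPKM or more, and tested with limma 3.58.1 (R 4.3.3; prior variance fitted as a trend on level), with Benjamini-Hochberg adjustment over all genes tested. The fit was tested on simulated data. Changes are Sal_CP minus CP. Ratios were compared by two-sided exact permutation tests with scipy 1.17.1. Identity was counted over global alignments. All members were named, with the 2 genes of smallest p and any called in each pathway list and, for the 3 most abundant members, the 3 genes of highest Pearson's r, except 1 list gene that is not reported here. Members and lists were chosen with earlier results of these data known. Alternatives were other pseudocounts, filters, scalings, limma options and a threshold of 0.1, each library left out, and the replicate number as a block.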

Additional observations from a re-analysis of the deposited data

How the results depend on the processing

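No member was called under any alternative, and log2 changes kept their direction except for Aldh1a7 (-0.036 with mitochondrially encoded genes removed, and -0.29 to 0.24 with 1 library left out, below 0 without replicate 1 of either group) and Aldh3a2 (-0.59 to 0.11 with 1 library left out, above 0 without Sal_CP replicate 2). The count of all genes called, 9 (9 lower, 0 higher), was 0 after median of ratios or upper quartile rescaling and without a filter, 5 after quantile normalization and with a pseudocount of 0.1 and a filter of 0.3, and 22 (all lower) at a threshold of 0.1. Leaving out 1 library each gave 0 to 13 genes, 0 to 12 lower and 0 to 1 higher, and 0 to 1 among other aldehyde enzymes. That list's single call was 0 after either rescaling and without a filter. The median change of all genes was -0.12, and 0.03 after median of ratios rescaling. With the replicate number as a block, 280 genes were called (200 lower, 80 higher), 1 each among glutathione transferases and retinoid genes and 0 members. Same-numbered libraries correlated at 0.196, -0.115 and -0.064 in their deviations and 2 of 6 libraries were closest to their own number, so the numbers were not taken to pair samples. Depth is unknown, so what it limits could not be computed, and no count-based test was run.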

Other observations

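Of 5 listed amine and polyamine oxidases, which make aldehydes that dehydrogenases can take up, 3 were low and separated by group and 2, Paox and Smox, overlapped. Maob, a mitochondrial monoamine oxidase, had 0.0242, 0.119 and 0.108 FPKM in Sal_CP, against 1.00, 0.569 and 0.363 FPKM in CP. Aoc1, a diamine oxidase, had 0.170, 0.286 and 0.323 FPKM in Sal_CP, against 1.81, 0.695 and 1.17 FPKM in CP. Maoa had 0.961, 0.741 and 0.952 FPKM in Sal_CP, against 1.14, 1.123 and 1.01 FPKM in CP. All 3 lay below the filter and were not tested, every Sal_CP library lay below every CP library, and they were picked after their values were seen, from a band of 0.3 to 1 FPKM in which 9.69% of genes were apart in that direction.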
